A study of Arabidopsis thaliana with 2 samples.

Results

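HPR, GLYK and GLDT encode 3 enzymes of the photorespiratory cycle, and their transcripts were read in sap drawn from leaf trichomes and from leaf pavement cells of Arabidopsis thaliana. The genes were chosen by pathway, with 1 step in each organelle of the cycle, and with earlier results of these data known. They are 3 of the 13356 genes that had a named probe set. Trichomes are the leaf's hairs, each a single epidermal cell, and pavement cells make up most of the rest of the epidermis. Both samples came from 5-week-old plants of accession Columbia-0, untreated, grown in a chamber under long days. Sap was taken with microcapillaries, and its RNA was amplified in 1 round, labelled with biotin and hybridised to 1 Affymetrix array per cell type. The numbers of cells and plants behind each sap sample were not stated in the labels. With 1 array per cell type no value has a replicate error and no difference was tested.

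Photorespiration salvages the 2-phosphoglycolate that forms when rubisco fixes oxygen in place of carbon dioxide. The carbon leaves the chloroplast as glycolate, becomes glycine in the peroxisome and serine in the mitochondrion, and comes back through the peroxisome to the chloroplast as glycerate. HPR (AT1G68010), the peroxisomal hydroxypyruvate reductase, makes the glycerate. GLYK (AT1G80380), the plastid glycerate kinase, phosphorylates it to 3-phosphoglycerate and so closes the cycle. GLDT (AT1G11860) is the T-protein, or aminomethyltransferase, of the mitochondrial glycine decarboxylase complex, which releases carbon dioxide and ammonia from glycine. In leaves the cycle is known above all from green photosynthetic cells.

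Values are RMA signals on the log2 scale, as deposited. A reading was taken as background at or under 2.58, the highest reading of 27 probe sets for Bacillus subtilis transcripts. A fold against a background reading was computed against that ceiling and is a lower limit, written "at least". Most of both arrays was dim: of the 22810 probe sets, 13.9% read above the ceiling in trichome and 18.5% in pavement. The 18 probe sets for hybridisation controls, bacterial and phage transcripts usually added to every hybridisation, were all lower on the trichome array, with a median difference of -3.15 on the log2 scale. The amounts added were not stated in the labels, so the scale between the arrays is not settled by them. Centring on these controls adds 3.15 to every difference. Of the listed genes above background on both arrays, RCA, SBPASE, PRK, LHCB4.1 and LHCB4.2 then stay lower in trichome, and GLDT, GLDH3, PLGG1, AIM1 and 10-FDF2 turn higher. For a gene at background in trichome the centred difference is only an upper limit. Differences below are trichome minus pavement as deposited, and the other scalings are given beside HPR, GLYK, GLDT, GLDH3 and PLGG1.

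HPR was bright in pavement and at background in trichome. Its probe set, 260014_at, read 1.88 in trichome, at background, and 9.77 in pavement on the log2 scale. The HPR signal was thus at least 146-fold lower in trichome than in pavement, with a deposited difference of -7.89 and a bound of -7.19 once the trichome reading was raised to the ceiling. Among the 13356 genes, 33 were brighter than HPR on the pavement array. The fold rests on this 1 probe set. Another, annotated to HPR and AT5G05370 together and not used for either gene, read 2.22 in trichome and 2.28 in pavement, at background on both arrays, and so did not show the pavement signal of 260014_at. HPR stayed lower in trichome under every scaling run: the difference was -6.02 after quantile normalization of the arrays, -4.97 after a lowess correction for mean level, and -4.74 when centred on the hybridisation controls. With the trichome reading at the ceiling, the last of these was at most -4.04. The quantile and lowess values used the background reading as it stood, so their size is not measured. Whether fewer of the sampled cells held the transcript or each held less of it cannot be told apart.

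GLYK was likewise above background in pavement and at background in trichome. Probe set 260284_at read 1.78 in trichome, at background, and 4.52 in pavement on the log2 scale. The GLYK signal was at least 3.84-fold lower in trichome, with a deposited difference of -2.74 and a bound of -1.94. It remained lower by quantile normalization (-2.17) and by the lowess correction (-2.23). Both values used the background reading in trichome as it stood, so their size is not measured. Centred on the hybridisation controls the deposited readings gave 0.41. As the trichome reading was at background, the centred difference is known only to be at most 1.21, so that its direction is not settled.

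GLDT was the only one of the 3 above background in both saps. Probe set 264394_at read 3.73 in trichome and 4.44 in pavement on the log2 scale, a 1.64-fold lower signal in trichome and a difference of -0.71. That is under 2-fold, and its direction turned under each rescaling, to 0.80 with quantile normalization, 0.63 with the lowess correction and 2.44 against the controls. In the order of the trichome array GLDT stood at place 267 of the 13356 genes, and at place 421 in that of the pavement array.

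**Figure D1:**
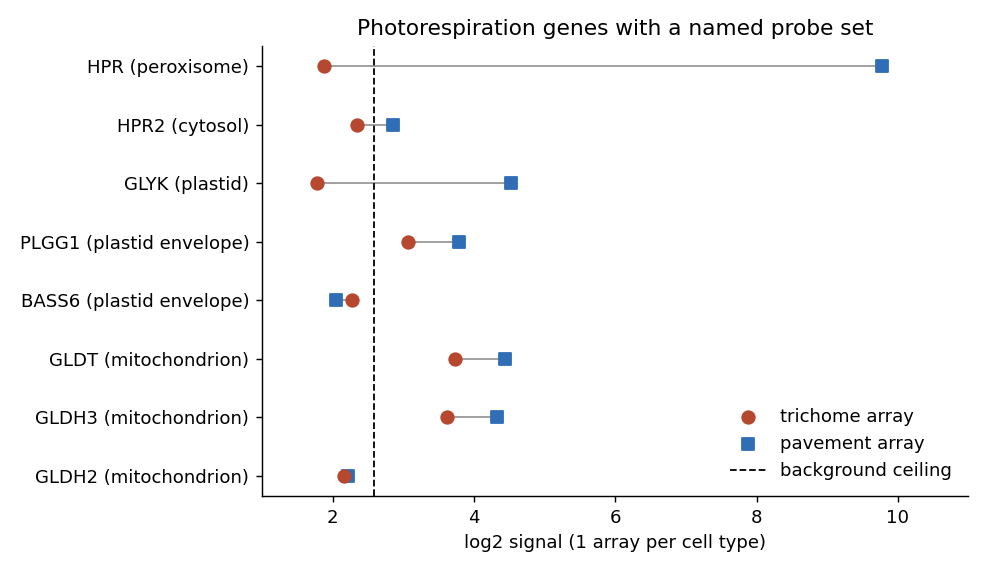
Log2 signal (horizontal axis) of the 8 photorespiration genes with a named probe set, grouped by compartment; circles are the trichome array, squares the pavement array, the dashed line is the background ceiling of 2.58, and there is 1 array per cell type. HPR (1.88 in trichome, 9.77 in pavement) and GLYK (1.78 and 4.52) cross the ceiling, while GLDT (3.73 and 4.44) lies above it on both arrays.

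No replicate error exists, and technical error was gauged from genes with several probe sets. Over the 36 genes with several probe sets of which at least 1 was above background, the pooled SD of the difference was 0.95 on the log2 scale, and it leaves out the spread between plants, sap samples and amplifications. Over all 146 genes with several probe sets, most of them at background, the SD was 0.52. The 18 hybridisation controls, all bright, had differences from -3.54 to -1.94. The GLDT difference of -0.71 lay within the SD of 0.95 and outside that of 0.52, and the HPR bound of -7.19 lay far outside both. The GLYK bound of -1.94 was outside both SDs as well. Unlike HPR, GLYK lay inside the range of the controls, with its deposited difference of -2.74 and, at the edge, its bound. The SDs are taken around each gene's own mean and hold no constant shift between the arrays. They therefore do not settle whether the GLYK drop exceeds such a shift. Comparing genes within the same arrays removes a constant shift between them but not 1 that changes with level. The median difference was -5.36 over genes within 0.5 of HPR in pavement and -1.30 over those within 0.5 of GLDT. As deposited, HPR was lower in trichome relative to GLDT by at least 6.48 on the log2 scale. The SD for a contrast of 2 genes was 1.35 from the 36 genes or 0.73 from the 146. With the lowess correction for level the differences were closer, -4.97 for HPR and 0.63 for GLDT. GLYK was lower relative to GLDT by at least 1.23, which is within 1.35 and outside 0.73. HPR and GLYK could not be ranked against each other by the size of the drop, because both trichome readings were at background.

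Of the 32 genes listed for the photorespiratory pathway and its transporters, 8 had a named probe set and 6 of these were above background on at least 1 array. HPR and GLYK were 2-fold or more lower in trichome, 2 of 8 (25%), and none was 2-fold or more higher. A 2-fold drop was usual at their pavement levels. It was seen in all 20 other genes with a pavement reading within 0.5 of that of HPR, and in 156 of 234 for GLYK. Across all genes at or above the floor (a higher reading of at least 2.05, the median of all values), 679 of 8168 were 2-fold or more lower in trichome (8.31%) and 97 were 2-fold or more higher (1.19%). With background readings raised to the ceiling, HPR and GLYK still passed 2-fold, beside 6.64% of all genes lower and 0.526% higher in trichome. Centred on the hybridisation controls, which shifts every gene by 3.15, 1 of the 8 was 2-fold or more lower and 6 were higher. Of the 8168 genes, 86 were then lower and 7881 higher. GLDH2 and BASS6, counted among the 6, were at background on both arrays, and HPR2, also counted, was so in trichome. Their centred differences therefore settle no direction. Of the 8 genes, GLDT, GLDH3 and PLGG1 were above background on both arrays and none of these passed 2-fold, whereas 31% of the 1139 genes above background on both arrays were 2-fold or more lower in trichome and 2.02% higher. The median difference of the 8 was -0.71, beside -0.01 over the 8168 genes and -0.42 over the 2624 genes above background on at least 1 array. The count is small and the genes were chosen with earlier results known, so these shares are a description.

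The cytosolic counterpart of the peroxisomal enzyme was dim in both saps. HPR2 (AT1G79870), the hydroxypyruvate reductase of the cytosol, read 2.35 in trichome, at background, and 2.85 in pavement on the log2 scale. Its signal was at least 1.2-fold lower in trichome, so no 2-fold difference was shown. With both trichome readings at background, the drops of HPR and HPR2 could not be ordered.

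The mitochondrial step was represented by 3 genes of the glycine decarboxylase complex. GLDH3 (AT1G32470) encodes an H-protein, the lipoyl-bearing subunit that shuttles intermediates between the other subunits. Its readings were 3.61 in trichome and 4.33 in pavement, and the difference was -0.72. The differences of GLDT and GLDH3 were 0.0059 apart on the log2 scale. GLDH2 (AT2G35120), another H-protein gene, read 2.16 in trichome and 2.22 in pavement, at background on both arrays. The T- and H-protein genes that gave signal were therefore each detected in both saps, with a deposited difference of nearly the same size. A gap so far under the SD for a contrast of 2 genes (1.35 or 0.73) cannot be resolved here. The median difference of the 1139 genes above background on both arrays was -0.37. Like that of GLDT, the GLDH3 difference turned positive under rescaling, to 0.63, 0.52 and 2.43 with quantile normalization, the lowess correction and the controls.

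At the plastid envelope, 1 of the 2 measured transporter genes was above background in both saps. PLGG1 (AT1G32080, named LrgB in the RefSeq table), which exchanges glycolate for glycerate across the envelope and so feeds GLYK, read 3.07 in trichome and 3.78 in pavement. Its difference was -0.71, 0.0029 from that of GLDT, a gap likewise too small to be resolved. The PLGG1 difference was 0.06 with quantile normalization, 0.01 with the lowess correction and 2.44 against the controls. BASS6 (AT4G22840), a further glycolate exporter of the envelope, read 2.27 in trichome and 2.05 in pavement, at background on both arrays. GLDT, GLDH3 and PLGG1 were thus above background in trichome, whereas HPR and GLYK were not.

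**Figure D2:**
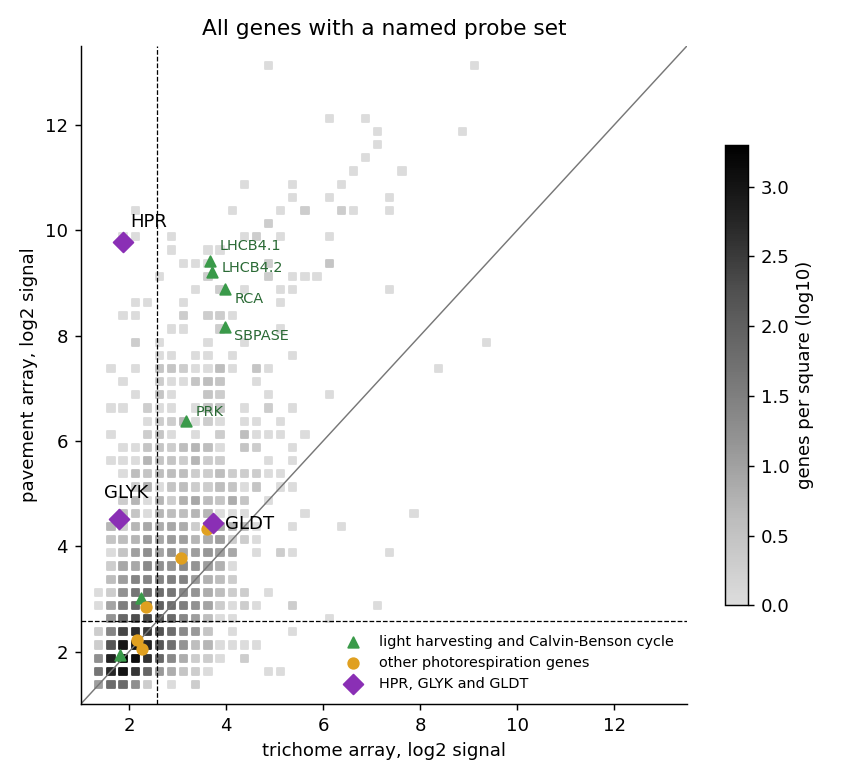
Trichome log2 signal (horizontal axis) against pavement log2 signal (vertical axis) of the 13356 genes, shown as grey squares darker with more genes (log10 scale); diamonds are HPR, GLYK and GLDT, circles the other photorespiration genes, triangles the genes of light harvesting and the Calvin-Benson cycle, dashed lines the ceiling of 2.58 and the diagonal equal signals. HPR lies left of the ceiling at 9.77 in pavement, apart from LHCB4.1 and RCA, which read 3.67 and 3.97 in trichome.

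Photosynthesis genes gave the nearest setting for these enzymes, since photorespiration begins at rubisco. Of 25 genes listed for the Calvin-Benson cycle, 4 had a named probe set, and 3 of them were 2-fold or more lower in trichome, with a list median of -3.70. RCA, rubisco activase, read 3.97 in trichome and 8.88 in pavement, 29.9-fold lower in trichome. SBPASE, sedoheptulose-bisphosphatase, read 3.97 in trichome and 8.17 in pavement. PRK, phosphoribulokinase, read 3.17 in trichome and 6.38 in pavement. The plastid phosphoglycerate kinase gene PGKP2 (AT1G56190) read 2.24 in trichome, at background, and 3.02 in pavement.

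In the light-harvesting list 3 of 18 genes had a named probe set, and 2 of them were 2-fold or more lower in trichome. The antenna gene LHCB4.1 read 3.67 in trichome with a difference of -5.75, LHCB4.2 read 3.70 with a difference of -5.52, and LHCB4.3 was at background on both arrays. RCA, SBPASE, PRK and the antenna genes LHCB4.1 and LHCB4.2 all kept a trichome signal above background, unlike HPR and GLYK. Centred on the controls, the differences of these 5 ran from -2.60 for LHCB4.1 to -0.06 for PRK, against at most -4.04 for HPR. These lists also serve as markers of mesophyll and other green cells. Their summed level was 4.87 in trichome and 10.3 in pavement (log2) for light harvesting, and 5.49 in trichome and 9.73 in pavement for the Calvin-Benson cycle. The part of green-cell sap in the differences of HPR and GLYK was not tested.

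To place each enzyme without relying on the scale between the arrays, its trichome reading was set among those of genes whose pavement reading lay within 0.5 of its own. The order of readings on the trichome array does not change when a constant is added to all of them, although a reading also depends on the probes of each set. For HPR, 20 other genes fell in that window, with a median trichome reading of 4.61. Of these, 19 were above background in trichome. The exception was PRXR1 (AT4G21960), a peroxidase gene, at 2.22 in trichome and 9.76 in pavement, and readings at background have no order between them. Among the 33 genes brighter than HPR in pavement, 1 was at background in trichome, the expansin-like gene EXLA1 (AT3G45970). A signal at this pavement level was therefore seldom at background on the trichome array.

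The same window gave other pictures for GLYK and GLDT. For GLYK it held 234 genes with a median trichome reading of 3.09, and 66 of them (28.2%) were at background in trichome as GLYK was. A background reading in trichome was thus common among genes as bright as GLYK in pavement. For GLDT the window held 255 genes with a median trichome reading of 3.02, and 57 of them (22.4%) read higher in trichome than GLDT at 3.73. GLDT lay above the upper quartile of these genes, at 3.64. GLDH3 was much alike: 73 of 278 genes (26.3%) read higher in trichome. PLGG1 was nearer the middle, with 181 of 477 (37.9%) higher.

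The photosynthesis genes above background on both arrays lay well inside their own windows. In trichome 19 of 26 genes read higher than LHCB4.1, 16 of 24 higher than LHCB4.2 and 13 of 28 higher than RCA. SBPASE had 6 of 24 genes higher, and PRK had 43 of 68 higher. PGKP2, dim in pavement at 3.02, was at background in trichome like HPR and GLYK. In its window 958 of 1555 genes were at background there too. HPR, with 19 of 20 genes above background while it was not, therefore stood at the far edge of its window, and the bright antenna and Calvin-Benson cycle genes did not. HPR was chosen with earlier results of these data known, so its place is a description of 1 array for each cell type and not a test.

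**Figure D3:**
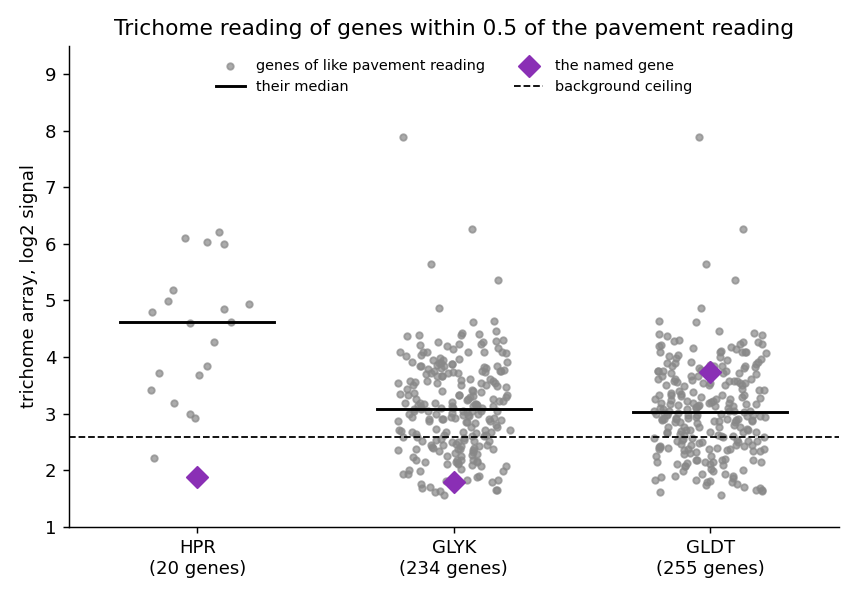
Trichome log2 signal (vertical axis) of the genes whose pavement signal lies within 0.5 of that of HPR (20 genes), GLYK (234) and GLDT (255); grey points are genes, spread sideways at random, bars are their medians (4.61, 3.09 and 3.02), diamonds are the named enzymes and the dashed line is the ceiling of 2.58. HPR lies under the ceiling while 19 of its 20 genes lie above it, GLYK lies under it with 66 of its genes, and GLDT lies above its median.

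Starting from the trichome array gave the converse view of the genes detected there. Of 403 other genes within 0.5 of GLDT in trichome, 135 (33.5%) read higher in pavement than GLDT, and the median pavement reading was 3.86 beside 4.44 for GLDT. For GLDH3, 167 of 486 such genes (34.4%) read higher in pavement. For PLGG1, 244 of 1343 (18.2%) did. All 3 therefore read above the median pavement signal of genes with a like trichome signal.

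Other functions of the same organelles were sparsely covered. In the peroxisome list 2 of 19 genes had a named probe set. AIM1, a multifunctional enzyme of fatty acid beta-oxidation, read 2.93 in trichome and 3.71 in pavement (difference -0.78 as deposited, -0.11 with quantile normalization and -0.14 with the lowess correction), and PEX4, a ubiquitin-conjugating enzyme of peroxisome biogenesis, was at background on both arrays. The peroxisomal gene AIM1 was therefore above background in trichome where HPR was not. In the respiration and Krebs cycle list 3 of 16 genes were measured, with a median difference of -0.17. IDH5 (IDH-V, AT5G03290), a subunit of isocitrate dehydrogenase, read 2.01 in trichome, at background, and 3.08 in pavement. Its deposited difference of -1.07 passed 2-fold, but the lower limit was 1.41-fold. SDH1-1 and SDH2-1, subunits of succinate dehydrogenase, were at background on both arrays.

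One-carbon metabolism meets the cycle at the glycine decarboxylase step, where the tetrahydrofolate cofactor is loaded. Of 13 listed genes of serine and one-carbon metabolism, 2 were measured, both deformylases that keep this folate pool in balance. The gene 10-FDF2 (AT5G47435) read 3.29 in trichome and 3.86 in pavement, and its difference was -0.57 as deposited, 0.37 with quantile normalization and 0.28 with the lowess correction. The gene 10-FDF1 (AT4G17360) was at background on both arrays. Like those of GLDT and GLDH3, the deposited difference of 10-FDF2 was under 2-fold and turned positive under rescaling.

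Markers of the sampled cell types gave little check of the labels. Of 12 listed trichome genes 5 had a named probe set, and GL1, GL2, GL3 and TTG1 were not among them. SIM, which blocks division in developing trichomes, read 2.79 in trichome and 2.06 in pavement, at background. Its signal was at least 1.15-fold higher in trichome. MYC1 and TRY, regulators of trichome formation, were at background on both arrays. TBR (AT5G06700), needed for the cellulose of trichome walls, read 2.07 in trichome, at background, and 6.83 in pavement. The trichome array therefore lacked signal for a gene known from trichomes as well as for HPR. ACR4, the 1 measured gene of 10 listed for the epidermis, and SWEET11, the 1 measured of 4 for the vasculature, were at background on both arrays. The stomatal lineage genes SPCH, MUTE and FAMA, 3 of 7 listed for guard cells, read 2.62 to 2.96 in trichome and were at background in pavement. None of the guard cell genes differed by 2-fold as deposited.

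The genes nearest to each enzyme in the plane of the 2 readings were listed by their Euclidean distance on the log2 scale, over 1 array per cell type. Nearest to HPR were PRXR1 at a distance of 0.34, EXLA1 at 0.61, AT4G23670 at 0.94, AT2G25450 at 1.05 and ECS1 at 1.11. Few genes had such readings, and the distances for HPR were accordingly wide. Nearest to GLYK were AT1G72030 at 0.05, AT4G18280, AT2G20230, AT1G54500 and AT5G40490, the last at 0.16. All 5 were at background in trichome, from 1.64 to 1.90, and read from 4.41 to 4.56 in pavement. Nearest to GLDT were AT5G14030 at 0.03, AT3G19990, AT1G66820, AT5G61590 and AT1G55450, the last at 0.08. Their differences ran from -0.75 to -0.66, as their choice by nearness implies.

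**Figure D4:**
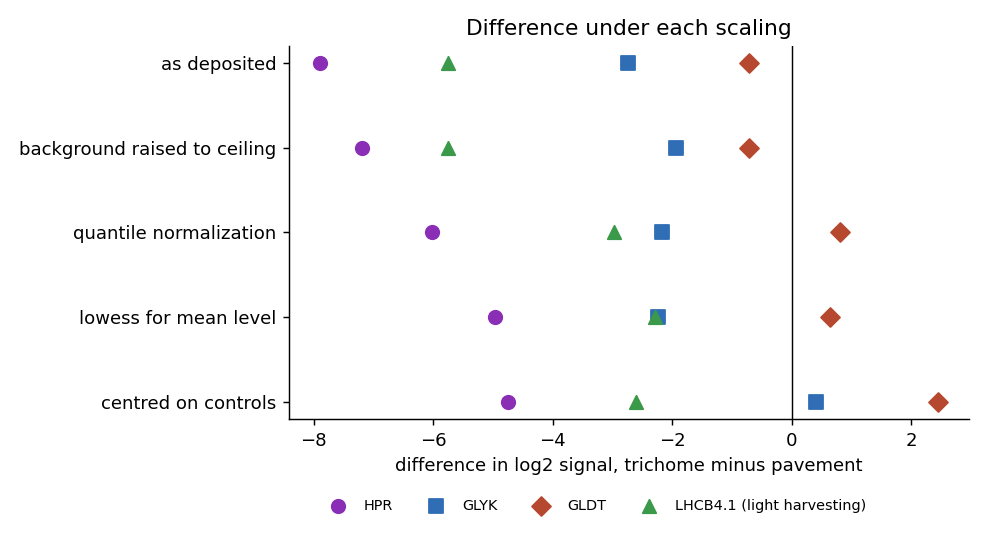
Difference in log2 signal, trichome minus pavement (horizontal axis), of HPR, GLYK, GLDT and the antenna gene LHCB4.1 under 5 scalings (rows), with 1 array per cell type; the vertical line is no difference. HPR stays between -7.89 and -4.74, GLYK is -2.74 as deposited and 0.41 when centred on the controls, and GLDT is -0.71 as deposited and 0.63 to 2.44 after rescaling. The trichome readings of HPR and GLYK were at background.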

How the data were processed

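The deposited table holds log2 signals of 22810 probe sets on 2 arrays, which the authors processed by RMA according to the submitters' processing notes. The RMA version, its steps and the log base were not stated in the labels, and log2 was inferred because values run from 1.28 to 14.2. The values carry no detection call. The platform annotation of 2016 pairs 13513 probe sets with 1 gene, 503 with several (not used) and lists no gene for 8794; 13436 of the 13513 were matched to RefSeq TAIR10.1 by gene identifier, and 77 kept the annotation's name. No coordinates or sequences are given. Probe sets of a gene were averaged, giving 13356 genes. HPR, GLYK and GLDT have 1 probe set each.

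Differences are trichome minus pavement. A gene was counted at 2-fold or more with its higher reading at or above 2.05. No p-value was computed. Alternatives were quantile normalization, a lowess correction (fraction 0.3, statsmodels 0.14.6), centring on 18 hybridisation controls, background raised to 2.58 or 2.21, the brightest probe set of a gene, and no floor. The members and the 10 lists (156 genes, 32 measured) were chosen with earlier results of these data known. Named genes are the 3 enzymes, all measured photorespiration genes, up to 4 of each other list by brightness, and the 5 nearest genes of each enzyme. Counting and rescaling were tested on simulated data. Both arrays are numbered replicate 1, and their number limits the precision of every value.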

Additional observations from a re-analysis of the deposited data

Results flagged for a closer look

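The hybridisation controls, which enter the gene comparisons only where differences are centred on them, gave signal that differed between the arrays. Their median difference was -3.15 on the log2 scale, trichome minus pavement (8.87-fold), with 18 of 18 probe sets lower in trichome. All read 6.88 or more on both arrays.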

How the results depend on the processing

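HPR kept its direction under every alternative run, at -6.02 with quantile normalization, -4.97 with the lowess correction, -4.74 centred on the controls and -7.19 with background raised to the ceiling. GLYK was -2.17 with quantile normalization and -1.94 with background raised, and 0.41 when centred on the controls, a value from a background reading that is known only to be at most 1.21. The quantile and lowess values of HPR and GLYK also rest on background readings in trichome, so their size is not measured. GLDT turned to 0.80, 0.63 and 2.44 with quantile normalization, the lowess correction and the controls. The photorespiration list median, -0.71 as deposited, was -0.0048 with quantile normalization, -0.036 with the lowess correction and 2.44 against the controls. Centring adds 3.15 to every difference by construction, and raising background narrows differences by construction; otherwise the cause was not tested.

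Genes 2-fold or more lower in trichome, 679 as deposited, numbered 346 with quantile normalization, 325 with the lowess correction and 86 against the controls. Those 2-fold or more higher, 97 as deposited, numbered 374, 264 and 7881 in that order, and 43 or 63 with background raised to 2.58 or 2.21. The share of higher among these calls was 12.5% as deposited, 51.9% with quantile normalization, 44.8% with the lowess correction and 98.9% against the controls. The other 17 values under these alternatives kept their direction and moved by less than 0.52, the SD between probe sets over all 146 genes, or by under 1.5 times for counts. Windows of 0.25 and 1 around the pavement reading, chosen after seeing the data, gave 10% and 4.35% of genes at background for HPR, 26.9% and 29.8% for GLYK, and 27.4% and 19.4% of genes higher than GLDT. No paired analysis was possible because each cell type has 1 array.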

Other observations

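With quantile normalization the stomatal lineage genes MUTE and FAMA passed 2-fold higher in trichome, with differences of 1.21 and 1.12. SPCH, at 0.72, did not pass. Across all genes, 374 of 8139 were 2-fold or more higher under that scaling. MUTE and FAMA were at background in pavement, so their differences rest on readings that have no order there.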
